A study of Mus musculus with 6 samples.

Results

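The first day of neural conversion was examined in mouse epiblast stem cells (EpiSCs) by comparing the 2 arrays of the group NPC1 with the 2 arrays of the group EpiSC. These are 4 of the 6 arrays of the series, taken by their group labels, and the comparison covers every non-control probe. EpiSCs are pluripotent cells taken from the epiblast of the implanted embryo, and all cultures here were EpiSCs of strain 129/Sv. The EpiSC group stayed in the condition that maintains the epiblast state, and the NPC1 group spent 1 day in a neural plate developmental condition. The components of both media are not given in the sources used here. The group NPC2, after 2 days, shared the estimate of spread in the fit, and its values are given beside some genes. Letters A and B mark duplicate cultures that came from 1 seed culture, and each p-value therefore reflects nothing beyond the spread among these arrays, part or all of which may be technical.

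In the embryo, the epiblast of the gastrula gives rise to the neural plate and, through the primitive streak, to mesoderm and endoderm. Nodal, FGF and Wnt signals hold EpiSCs near the streak side of this choice, and the loss of Nodal and BMP signals is the classical condition for neural induction. The neural plate then expresses SoxB1 and Zic factors along its whole length, and homeobox genes of the Otx, Irx and Gbx families in sectors along its axis.

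Total RNA was measured on 1-colour arrays, all on 1 slide per the file headers. Depending on the array, 58.2% to 61.1% of its 59305 spots that were not controls exceeded background clearly, and 0 were saturated. Values below are processed intensities scaled so that the 75th percentile of each array is 413, and they are given in the order EpiSC A and B, then NPC1 A and B. A level is a property of its probe, so levels are compared between arrays and never between genes. A log2 change is the mean log2 value of NPC1 minus that of EpiSC, its error is the standard error (SE) of the limma fit, and n is 2 arrays per group throughout. A gene was called at an adjusted p under 0.05 over all 14772 genes tested, and "rose" and "fell" are used only of called genes. Of all genes tested, 50.3% were called, 21.5% higher and 28.8% lower in NPC1, and 8.34% were also at least 2-fold apart (4.46% higher and 3.88% lower). The counts of each list below are to be read against these shares, and several lists lie near them. In the fit of all 33532 probes, 33.3% were called and 6.71% were also at least 2-fold apart. All counts of genes at least 2-fold apart use the fitted change. They include genes not above background in a group, some of which have a lower bound under 2-fold. The arrays of the groups did not overlap in 77.6% of genes. The median log2 change over all genes was -0.05, and it was 0.07 in the authors' value table and -0.16 when arrays were scaled by their medians. The share of called genes that were lower followed these shifts, at 57.3% here, 48.7% after quantile normalization, 71.3% with median scaling and 37.9% in the value table. A called change of a size near these shifts can thus change its direction with the scaling. Genes named outside the rule given with the processing were chosen after their values were seen; they are Cfc1, Skil, Eomes, Acvr2b, Smad3, Foxh1, Fgfr1, Fgfr2, Fgfr3, Fgfr4, Fgfrl1, Fos, Sfrp1, Dkk1, Hes1, Utf1, Klf2, Klf4, Klf5, Tfcp2l1, Lhx1, Nkx1-2, Foxa1, Rela, Nfkb1, Thy1 and Fbln2, and others are marked where they appear.

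**Figure D1:**
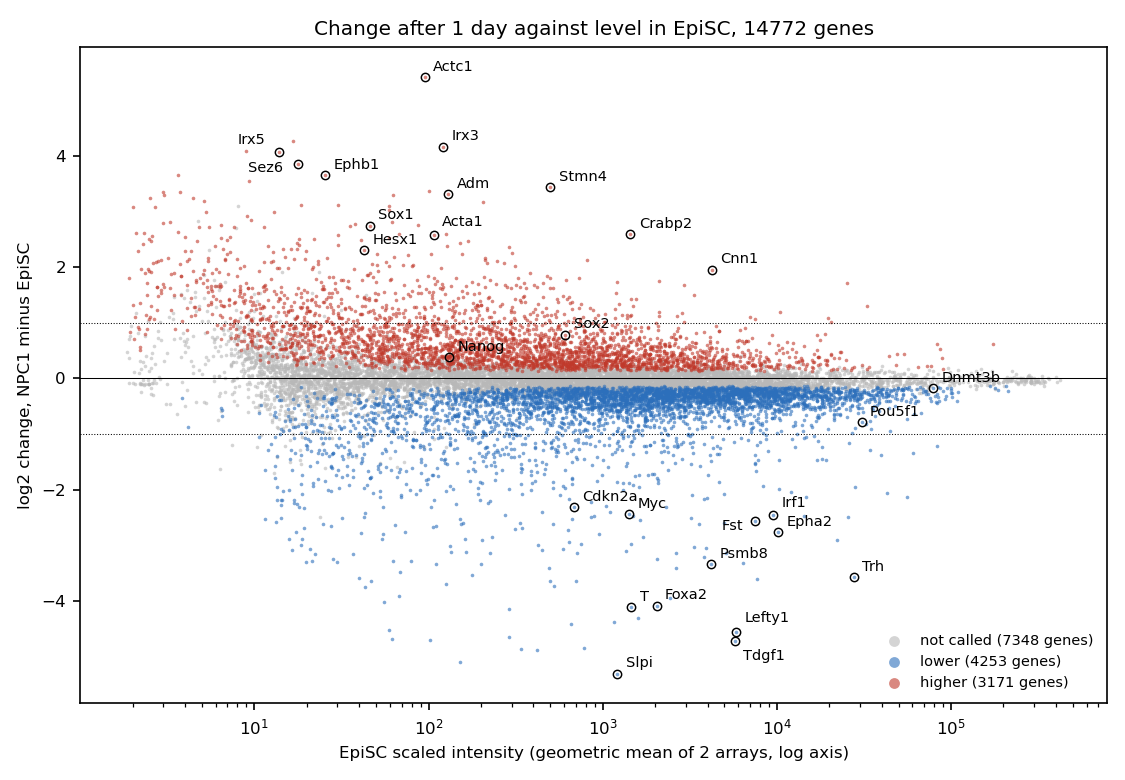
Log2 change (NPC1 minus EpiSC) of each of 14772 genes against its scaled intensity in EpiSC (geometric mean of 2 arrays, log axis), with dotted lines at a 2-fold change. Actc1, Irx3 and Stmn4 lie far above the bulk of genes, Slpi, Tdgf1 and Lefty1 far below it, while Pou5f1 and Dnmt3b, bright in EpiSC, lie within 2-fold.

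Genes of the Nodal pathway fell at almost every level, from ligand to target, while the receptor and transducer genes named here stayed within 2-fold. Of 22 genes tested, 15 were lower and 2 higher, against 28.8% and 21.5% of all genes, and 11 were at least 2-fold lower. The list median was -0.98. The ligand gene Nodal had intensities of 6428 and 6398 in EpiSC and of 579 and 706 in NPC1. The arrays of the groups lay far apart, and Nodal fell by 3.33 ± 0.10 on the log2 scale (adjusted p = 0.000106, limma). Tdgf1, which encodes the co-receptor Cripto, went from 5828 and 5659 to 196 and 241. Both NPC1 arrays were below both EpiSC arrays, and Tdgf1 was 43.1 and 42.2 after 2 days. Of the 3 Tdgf1 probes, the least changed gave -1.41. Cfc1, the gene of a related co-receptor, had 86.4 and 93.2 in EpiSC and 18.4 and 27.0 in NPC1, and fell 4.03-fold.

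Feedback inhibitors of the pathway fell too. Lefty1, a secreted antagonist of Nodal, had 5740 and 5945 in EpiSC and 247 and 245 in NPC1. Lefty2 had 1618 and 1783, then 232 and 237, so that its arrays in each group lay close together and far from the other group. Both fell (log2 change -4.57 ± 0.06 and -2.86 ± 0.06), and since the 2 genes are close in sequence, signal shared between their probes was not tested. Smad7, an intracellular inhibitor of the pathway, went from 721 and 676 to 54.7 and 57.5, and Skil, a co-repressor of SMADs, from 2945 and 2878 to 1307 and 1331. Among target genes, Eomes, a T-box gene of the streak, went from 1512 and 1458 to 379 and 412. By contrast Acvr2b, a receptor gene (log2 change 0.26 ± 0.07), and Smad3, a transducer gene (0.53 ± 0.06), rose. Foxh1, the DNA-binding partner of the SMADs, had 3011 and 3103 in EpiSC and 3477 and 3259 in NPC1 and was not called (log2 change 0.14, 95% interval -0.01 to 0.29).

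FGF ligand and receptor genes moved in both directions. Of 15 genes tested, 7 fell and 5 rose, and 9 were at least 2-fold apart (median -0.46, or -0.28 with dim genes at their bounds). Among the ligands, Fgf5 fell evenly (8297 and 8309, then 2168 and 2164), and Fgf15 went from 341 and 347 to 70.6 and 93.7. Fgf8, a streak and midbrain-hindbrain boundary ligand, had 2434 and 2427 in EpiSC against 129 and 192 in NPC1, and recovered in part to 559 and 641 after 2 days. Fgf15 passed its EpiSC level by then, at 741 and 829. Fgf9 was the ligand that rose, from 21.2 and 22.2 to 88.4 and 85.4 (log2 change 2.00 ± 0.05, adjusted p = 7.48e-05). Among receptor genes 3 rose: Fgfr3 went from 101 and 112 to 311 and 246, Fgfr2 from 100 and 108 to 222 and 210, and Fgfr1, the receptor gene of the epiblast, from 13056 and 12778 to 18809 and 17127. Fgfr4 (60.0 and 56.4, then 26.9 and 30.9) and the decoy receptor gene Fgfrl1 (1193 and 1270, then 926 and 869) fell. Probes differed for Fgf8, where the least changed of 3 gave -1.65, and for Fgfr3, where the least changed gave 0.20.

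Most genes of the FGF feedback and ETS list fell, and the immediate early genes moved both ways. In the feedback list 16 of 19 fell and 2 rose (median -0.79). Etv4, an ETS factor gene, had 14381 and 15088 in EpiSC and 3301 and 3441 in NPC1, and 464 and 525 after 2 days. Dusp6, an ERK phosphatase gene, went from 16926 and 17314 to 6057 and 6378. In both genes the groups stood apart and the level fell again on the second day. Shisa3 and Shisa2, whose products hold back maturation of FGF and Wnt receptors, moved oppositely. Shisa3 had 769 and 787 in EpiSC and 26.6 and 27.0 in NPC1, a 29.0-fold fall. Shisa2 had 87.9 and 88.9, then 265 and 300, and reached 1822 and 1528 after 2 days. Of the 22 immediate early genes, 7 rose and 8 fell (median -0.14). Myc had 1400 and 1435 in EpiSC and 262 and 258 in NPC1, Egr1 fell 1.84-fold, and Fos (51.8 and 53.3, then 49.3 and 47.6) was not called. Mycn, the Myc paralogue of neural progenitors, fell 1.70-fold, from 8566 and 8812 to 5072 and 5130. Fosl1 fell 3.43-fold, but its call ended when any 1 array was left out.

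Wnt ligands and receptors moved both ways: of 25 tested 9 fell and 8 rose, and their median of -0.04 turned to 0.08 in the value table. Wnt3, the ligand that starts the streak, had 466 and 437 in EpiSC and 82.0 and 89.7 in NPC1. The NPC1 arrays lay well below, and Wnt3 fell 5.26-fold. Fzd10, a Frizzled receptor gene, had 2327 and 2280, then 412 and 520, and Wnt5b had 1285 and 1336, then 318 and 337. Both were back at or above their EpiSC level after 2 days (2644 and 2908 for Fzd10, 1536 and 1522 for Wnt5b). The secreted antagonist gene Sfrp1 rose (148 and 140, then 496 and 516) and Dkk1, another antagonist, fell 2.28-fold and then stood at 609 and 584 after 2 days. Of the 15 Wnt targets, 7 fell and 3 rose (median -0.16). Sp5 had 868 and 854 in EpiSC, 141 and 241 in NPC1, and 7549 and 9240 in NPC2. Axin2 fell 1.57-fold on the first day, from 22.3 and 20.4 to 13.4 and 13.8, and Nkd1 rose from 153 and 123 to 283 and 307. Thus these target genes did not share 1 direction on day 1. Sp8 was called higher, but a second probe gave 0.06. Its call ended in the mean over probes, with no filter on dim probes and without either EpiSC array.

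In the BMP list 4 of 22 rose and 6 fell (median -0.13, or -0.19 with bounds), near the 21.5% and 28.8% of all genes. The Id genes, direct targets of BMP, divided. Id3 had 488 and 505 in EpiSC and 1410 and 1689 in NPC1. Id1 went from 158 and 166 to 323 and 293, and Id2 went the other way, from 1598 and 1656 to 496 and 477. After 2 days all 3 were at or above their EpiSC levels. The ligand gene Bmp7 rose 1.95-fold and Bmp2 fell 2.41-fold. Fst, which encodes the Activin and BMP trap follistatin, had 7557 and 7456 in EpiSC against 1061 and 1496 in NPC1, a log2 change of -2.57 ± 0.16.

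Notch genes were called in 15 of 20 cases, 7 higher and 8 lower, with a median of 0.05 that became -0.05 under median scaling. Hes3, counted among the 7, was above background in neither EpiSC nor NPC1 and passed the filter through NPC2. Dll1, a ligand gene, did not clear background in EpiSC (7.04 and 6.84) and had 30.5 and 35.6 in NPC1, at least 3.51-fold higher. Lfng, a glycosyltransferase that modifies Notch, rose from 50.05 and 52.17 to 135 and 158, and the target Hes5 from 178 and 182 to 442 and 486. Hes1, the other classical target, fell 1.49-fold. Dll1, Lfng and Hes5 all stood apart from EpiSC on both NPC1 arrays, and none of the 8 genes that fell was 2-fold lower. Hedgehog genes were called higher in 6 of 14 and lower in 2 (median 0.23), or in 3 and 3 under median scaling. The largest rises were those of the co-receptor gene Boc (29.98 and 25.96, then 52.7 and 57.0) and of Gli2 (101 and 94.8, then 181 and 179). Gli1, the target gene, fell 1.47-fold, and that call ended without EpiSC B or without NPC1 A. Of 17 retinoid genes 3 rose and 7 fell (median -0.07), or 5 and 4 in the value table (median 0.05). Crabp2, the retinoic acid carrier gene, had 1429 and 1457 in EpiSC, 8354 and 9141 in NPC1 and 31953 and 32977 in NPC2, rising 6.06-fold on the first day. Dhrs3, a retinal reductase gene that lowers retinoic acid, fell 2.05-fold, and Aldh1a2, a synthesis gene, fell 1.92-fold.

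**Figure D2:**
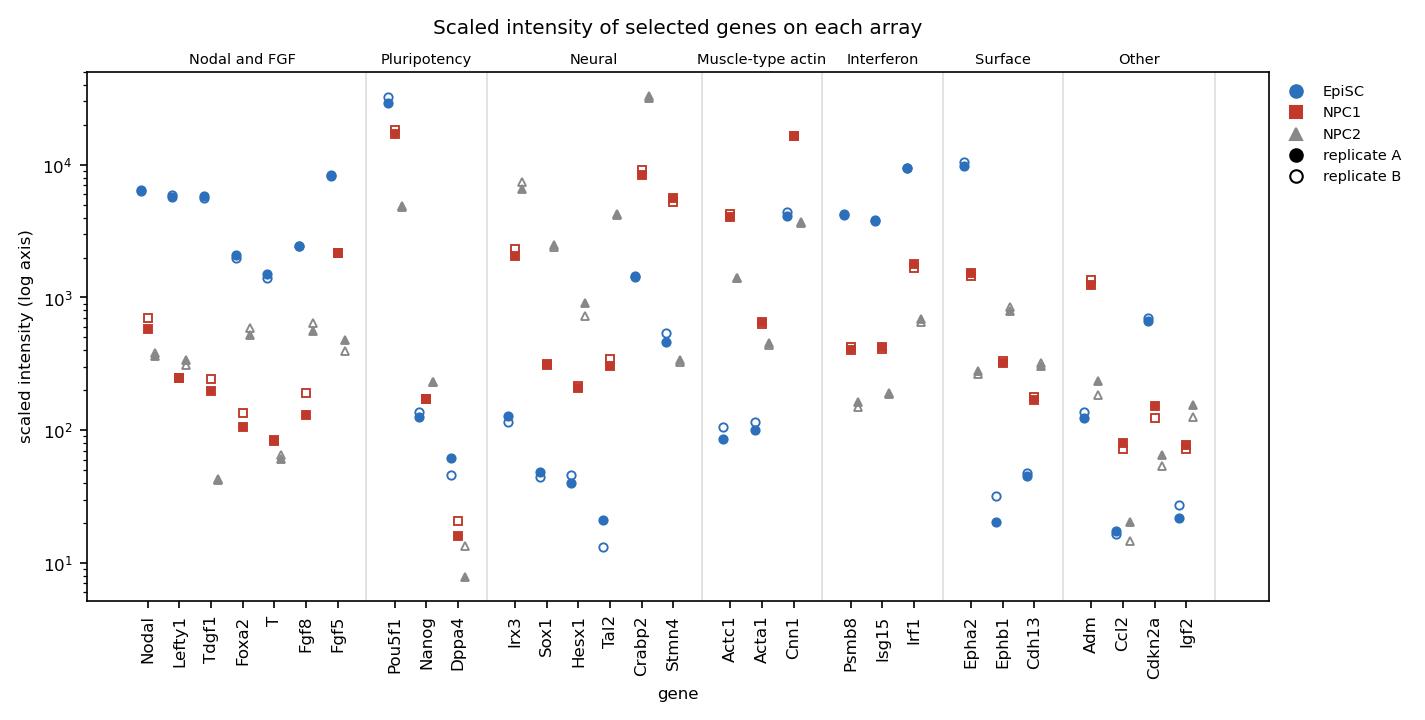
Scaled intensity (log axis) of genes named in the text on each of the 6 arrays, with EpiSC as circles, NPC1 as squares and NPC2 as triangles, filled for replicate A and open for replicate B. EpiSC and NPC1 arrays do not overlap for any gene shown, and Stmn4, Actc1, Acta1, Cnn1, Adm and Ccl2 are higher in NPC1 than in both other groups.

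Pluripotency genes fell to very different depths. Pou5f1, which encodes Oct4, had 28974 and 32468 in EpiSC and 17211 and 18393 in NPC1, and Utf1 had 44892 and 44470, then 23436 and 22793. Trh, the thyrotropin-releasing hormone gene expressed in the epiblast, fell much further, from 26521 and 29074 to 2058 and 2624 (11.9-fold). L1td1, an RNA-binding protein gene derived from a LINE element, had 84909 and 82218, then 37085 and 35297. In each of these genes both NPC1 arrays were below both EpiSC arrays, and NPC2 was lower again. Of 23 epiblast genes 14 fell and 4 rose (median -0.24). Nanog (127 and 136, then 172 and 172), Lin28a and Nr6a1 rose with Sox2, and these members were chosen after their values were seen. Among 18 naive genes 11 fell and 2 rose (median -1.15, or -1.20 with bounds). Of these 18, 12 were above background on all 4 arrays. Dppa2 and Nlrp4f passed the filter through EpiSC alone and could hardly be called higher. Klf5, a naive-state factor gene, fell 2.33-fold and Dppa4 2.90-fold, while Klf4, Klf2 and Tfcp2l1 were not called. Dppa4 was chosen after its value was seen. Jam2 was the exception among the naive genes, not above background in EpiSC and at least 3.87-fold higher in NPC1, although a second probe gave 0.17.

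Most called primitive streak and endoderm genes were lower in NPC1. Of 22 streak and mesoderm genes 14 fell and 1 rose, with a median of -1.05, or -0.75 with dim genes at their bounds. Of these 22, 16 were above background on all 4 arrays. T (brachyury) went from 1506 and 1413 to 83.5 and 85.0. Lhx1, a homeobox gene of the organiser, went from 133 and 187 to 27.5 and 24.3. Mixl1, a streak homeobox gene, did not clear background in NPC1 (50.5 and 31.3, then 6.01 and 1.81) and was at least 4.54-fold lower. It passed the filter through EpiSC alone and could hardly be called higher. The member that rose was Nkx1-2, a gene of posterior neural progenitors, from 12.1 and 12.9 to 23.5 and 23.8. Of 17 endoderm genes 10 fell and 1 rose (median -0.55, or -0.75 with bounds). Of these 17, 14 were above background on all 4 arrays. Afp passed the filter through EpiSC alone and could hardly be called higher. Foxa2 had 2086 and 1992, then 106 and 135, and Foxa1 had 176 and 170, then 48.0 and 47.8. Foxa2 rose again to 523 and 588 after 2 days.

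Neural plate factors rose in 15 of 26 cases and fell in 3 (median 0.50). Sox1 had 48.1 and 44.4 in EpiSC and 316 and 308 in NPC1, but its second probe gave only 0.25. Meis2, a TALE homeobox gene, was above background on 1 of the 2 EpiSC arrays (13.1 and 6.65) and had 108 and 114 in NPC1. Zeb2, which encodes a SMAD-interacting repressor, went from 118 and 120 to 371 and 400. All 3 climbed further by the second day, to 2470 and 2398 for Sox1, 711 and 725 for Meis2 and 1220 and 1241 for Zeb2. Sox3 (4507 and 5048, then 4126 and 4370) was not called, and it was called lower only under median scaling. Zic2, a zinc finger gene of the dorsal neural plate, rose from 2155 and 1989 to 3900 and 3672. Hmga2 (-0.99) and Pou3f1 (-0.43) fell, and were chosen after their values were seen.

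Along the axis of the neural plate, the Iroquois genes had the highest median of the 38 lists. Of the 6 genes, 5 rose and 0 fell, with a median log2 change of 2.42, or 2.07 with Irx6 at its bound. Irx3 had 128 and 114 in EpiSC and 2060 and 2316 in NPC1. Irx5 had 17.3 and 11.1, then 217 and 252, and Irx1 had 16.5 and 20.9, then 148 and 179. The groups lay far apart in these 3 genes, with log2 changes of 4.17 ± 0.10, 4.08 ± 0.22 and 3.13 ± 0.15. Irx2 rose 2.02-fold, and Irx6, not above background in EpiSC, was at least 1.78-fold higher, a call that ended without NPC1 B and with normexp background correction. Irx4 did not pass (39.5 and 35.7, then 41.5 and 31.2). On the second day Irx1 reached 8171 and 8829, while Irx4 was at 68.7 and 61.5.

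Anterior genes were called higher in 7 of 12 cases and lower in 0 (median 0.73, or 0.88 with bounds). Only 4 of the 12 were above background on all 4 arrays. Genes such as Lhx5 and Rax, not above background in EpiSC, passed the filter through other groups and could hardly be called lower. Fezf2, counted among the 7, was above background in neither EpiSC nor NPC1 and passed through NPC2. Hesx1 had 39.8 and 45.7, then 207 and 216. Lhx5 was not above background in EpiSC (3.66 and 4.83) and had 16.8 and 21.0 in NPC1, at least 2.00-fold higher, and 664 and 709 in NPC2. Lhx2 went from 21.4 and 20.6 to 49.9 and 34.5, and its call ended without EpiSC B. Six3 and Pax6 did not clear background in EpiSC or NPC1, and Otx2, already bright in EpiSC (12333 and 12473), was 14363 and 13817 in NPC1 and was not called, though it was called higher in the value table, with normexp and after quantile normalization. Of 21 midbrain, hindbrain and dorsal genes 5 rose and 4 fell (median -0.09, or 0.03 in the value table). Of these 21, 9 were above background on all 4 arrays. Tal2, a bHLH gene of midbrain GABAergic precursors, had 21.2 and 13.2, then 305 and 347. Gbx2, a gene of the anterior hindbrain, had 22.4 and 17.3, then 92.9 and 102. Both groups of arrays were apart, and Tal2 reached 4261 and 4218 on the second day. Of the 27 Hox genes on the list 8 were tested, and 0 of these rose.

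Among neuronal genes 15 of 26 rose and 5 fell (median 0.36, or 0.33 with bounds), and the genes that fell include neurofilament and vesicle genes. Tubb3 had 791 and 828, then 3776 and 3300. Sez6, a seizure-related membrane protein gene, had 19.8 and 16.1, then 271 and 250. Stmn4, a neuronal stathmin gene that lies in no list, had 466 and 537, then 5661 and 5266. The rise of Stmn4 was 10.9-fold on day 1, and its level of 339 and 325 in NPC2 was below that of EpiSC. Nefl, the light neurofilament gene, was bright in EpiSC (21618 and 22638) and fell to 3031 and 2895. Syt1 (-1.33), Isl1 (-1.14), Dcx (-1.03) and Nefm (-0.55) also fell and were chosen after their values were seen. Npas4, an activity-induced transcription factor gene of neurons, had 28.1 and 32.8, then 264 and 267, and was 53.9 and 56.8 in NPC2.

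Of 22 transmitter receptor and neuropeptide genes, 10 rose and 4 fell (median 0.25, or 0.30 with bounds). Of these 22, 16 were above background on all 4 arrays. Grm6, a metabotropic glutamate receptor gene, had 415 and 425 in EpiSC and 10.8 and 18.6 in NPC1, a 29.6-fold fall. The peptide gene Npy was not well above background in NPC1 (156 and 146, then 3.57 and 5.42) and was at least 17.2-fold lower, and Gal fell 3.56-fold. Chrna4, a nicotinic receptor subunit gene, was not above background in EpiSC (9.72 and 9.52) and rose to 64.2 and 74.9, at least 7.14-fold. Grin1, the shared NMDA receptor subunit gene, was at least 2.70-fold higher.

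Eph receptors and ephrins were called in 13 of 20 cases, 7 higher and 6 lower (median 0.10, or -0.003 with 6 higher and 7 lower under median scaling). The largest changes went both ways. Epha2 had 9831 and 10457 in EpiSC and 1535 and 1457 in NPC1, and Epha1 had 11825 and 12227, then 2797 and 3003. Ephb1 had 20.4 and 32.1, then 319 and 330 (log2 change 3.67 ± 0.22, adjusted p = 0.000415). Epha4 rose 1.92-fold, and Epha10, not above background in EpiSC, at least 3.20-fold. All of these kept their direction on the second day, when Epha2 was 279 and 264 and Ephb1 was 792 and 843. Among 30 semaphorin, Slit, Netrin and receptor genes 8 rose and 11 fell (median -0.15), against 10 and 6 in the value table. Sema5b went from 20.9 and 14.8 to 91.5 and 99.9 and Robo1 from 303 and 292 to 720 and 678. Nrp2, a neuropilin gene, fell from 1960 and 1858 to 571 and 585, and stood at 6439 and 6946 in NPC2.

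Cadherins rose more often than they fell, 13 and 4 of 21 (median 0.41), but not the pair that marks neurulation. Cdh1 (E-cadherin) had 7185 and 7451, then 6425 and 6285, a log2 change of -0.20. Its call ended in the value table, under quantile normalization, with no filter on dim probes and with a replicate block. The Cdh1 call also ended when any 1 array of EpiSC or NPC1 was left out. Cdh2 (N-cadherin) had 2237 and 2220, then 2394 and 2448, and was not called, though it was called higher in the value table, under quantile normalization and in the mean over probes. Cdh13, a cadherin anchored by lipid, rose from 45.0 and 47.8 to 169 and 178, Cdh6 rose 2.25-fold and Cdh22 2.22-fold. Pcdh8, a protocadherin gene of streak mesoderm, fell from 144 and 145 to 25.4 and 35.5. Epithelial junction genes fell in 15 of 30 cases and rose in 2 (median -0.34). Ovol1, an epithelial zinc finger gene, fell from 53.7 and 56.5 to 11.7 and 10.5. Against that trend Cldn3, a claudin gene, rose from 663 and 670 to 1737 and 1720.

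Matrix genes fell in 20 of 40 cases and rose in 11 (median -0.23). Slpi, a secreted protease inhibitor gene, had 1188 and 1242, then 30.1 and 31.0. Its log2 change of -5.31 ± 0.07 was the largest fall among genes above background on all 4 arrays. Itga1, an integrin subunit gene, fell 3.38-fold, and Tnc, the tenascin gene, at least 3.79-fold. Lama1, a laminin chain gene of early basement membranes, rose from 297 and 336 to 895 and 817.

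Actin and myosin genes were among the largest rises of the comparison, within a list that moved both ways. Of 31 targets of serum response factor (SRF) and actin cytoskeleton genes, 12 rose and 7 fell, and 7 were at least 2-fold higher. The median was 0.10 and -0.0003 under median scaling, so that the list median had no direction that held across scalings. Actc1, cardiac alpha-actin, had 86.5 and 105 in EpiSC and 4014 and 4224 in NPC1, a 43.2-fold rise and the largest of the comparison. Acta1, skeletal alpha-actin, had 99.9 and 115, then 657 and 633. Acta2, smooth muscle alpha-actin, had 329 and 384, then 1218 and 1132. NPC1 lay apart from EpiSC in these 3 genes, and since actin genes share coding sequence, signal shared between their probes was not tested. Cnn1, the calponin gene of smooth muscle, had 4106 and 4414, then 16576 and 16605, and Myl9, a myosin light chain gene, had 2822 and 3024, then 9358 and 9352. Myl3 and Myl4, light chain genes of heart muscle outside the list, rose 10.4-fold and 8.18-fold. After 2 days Actc1 stood lower again at 1397 and 1409, Acta1 at 453 and 440, Cnn1 at 3721 and 3631, Myl9 at 5022 and 4505 and Myl3 at 507 and 478. Acta2 (2254 and 2021) and Myl4 (875 and 681) were higher still. The gene of cytoplasmic beta-actin, Actb, was not called, with 253640 and 254200, then 262960 and 249600 (95% interval of the log2 change -0.12 to 0.15), and its direction turned under median scaling. Members that fell, chosen after their values were seen, include Ccn2 (-1.54), Fhl2 (-1.32) and Ccn1 (-0.90), of which Ccn1 and Ccn2 encode secreted matricellular proteins.

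SRF binds the CArG box, and the RefSeq promoter entries (250 bases before to 50 bases after a start, GRCm38.p6) were searched for it on both strands as CC, then 6 bases of A or T, then GG. Of the 31 list members 25 had a promoter entry, and 9 of these (36.0%) held a CArG box, against 1.71% of the 11704 tested genes with an entry. The list was drawn up as known SRF targets, so this share is a description of how it was chosen. The box occurred in 4 of 10 members that rose and in 2 of 5 that fell. Stretches with the box in capitals are shown for 3 genes that rose and for both promoter entries of Fhl2, which fell, because a box of the same pattern, with other letters in its middle, stands before genes of both directions. All are from RefSeq, GRCm38.p6, 5′ to 3′ on the strand of the gene: Actc1 at chr2:114052888-114052947 (minus strand), Acta1 at chr8:123894814-123894873 (minus), Myl9 at chr2:156775278-156775337 (plus) and Fhl2 at chr1:43163962-43164017 and chr1:43196823-43196882 (minus).
Actc1: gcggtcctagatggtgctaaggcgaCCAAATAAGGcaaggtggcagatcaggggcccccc
Acta1: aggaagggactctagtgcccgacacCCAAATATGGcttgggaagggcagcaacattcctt
Myl9: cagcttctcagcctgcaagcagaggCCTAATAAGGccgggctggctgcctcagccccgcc
Fhl2, first entry: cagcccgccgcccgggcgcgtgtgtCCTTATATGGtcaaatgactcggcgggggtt
Fhl2, second entry: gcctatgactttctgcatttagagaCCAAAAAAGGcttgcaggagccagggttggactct
The box lies 38 to 47 bases before the start in Actc1, 64 to 73 in Acta1 and 152 to 161 in Myl9. In Fhl2 it lies 22 to 31 bases before the first start and 87 to 96 before the second.

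Another 4 motifs were counted in the same entries. These lists too hold known targets of the pathways, so their shares partly describe how the lists were chosen. GTGGGAA, the core read by the Notch mediator RBPJ, stood in 2 of 16 Notch list promoters (12.5%) against 7.32% of all, namely in Lfng and Hes5, which both rose. The Lfng stretch is at chr5:140607207-140607263 (plus strand) and the Hes5 stretch, with 1 match on each strand, at chr4:154960673-154960871 (plus), with matches in capitals.
Lfng: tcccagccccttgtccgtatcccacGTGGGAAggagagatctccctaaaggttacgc
Hes5: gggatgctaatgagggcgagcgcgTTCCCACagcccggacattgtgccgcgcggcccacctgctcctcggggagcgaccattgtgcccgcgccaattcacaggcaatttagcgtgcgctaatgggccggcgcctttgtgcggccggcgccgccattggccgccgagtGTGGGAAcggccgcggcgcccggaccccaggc
ACGTG, the core of the hypoxia response element, stood in 20 of 31 promoters of the glycolysis and hypoxia list (64.5%) against 27.8% of all. It occurred in 10 of the 17 members that rose and in 3 of the 4 that fell. Members that were not called, such as Ldha and Pkm, held it too, and both were chosen after their values were seen. ATCAAAG, read by TCF factors, stood in 1 of 9 Wnt target promoters, that of Sp5, against 3.11% of all. CCGGAAG, an ETS core, stood in 0 of 15 promoters of the FGF feedback list against 17.6% of all.

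Most called genes of antigen presentation and the interferon response were lower in NPC1. Of 22 tested 14 fell, 9 of them at least 2-fold by the fitted change, and 5 rose (median -0.66, or -0.61 with bounds). Psmb8, a subunit of the immunoproteasome, had 4195 and 4228, then 403 and 425. Isg15, a ubiquitin-like modifier induced by interferon, had 3802 and 3827, then 420 and 407. Irf1, the transcription factor gene upstream of many of these, had 9490 and 9493, then 1788 and 1670. The duplicates lay close together and far from the other group, with log2 changes of -3.35 ± 0.06, -3.21 ± 0.04 and -2.46 ± 0.06. Oasl2 fell 6.60-fold, Gbp4, a guanylate-binding protein gene, fell 17.7-fold, and Ifit1 was at least 1.88-fold lower. After 2 days Psmb8 was 162 and 150, Isg15 189 and 192 and Irf1 689 and 648. Not all genes of class I presentation followed: H2-K1 had 9151 and 9429, then 8484 and 8511, and was not called, and B2m, the light chain gene, rose 1.22-fold. H2-K1 and B2m were chosen after their values were seen.

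The NF-kB list moved the other way, with 9 of 21 higher, 6 of them at least 2-fold, and 3 lower (median 0.17). The chemokine gene Ccl2 had 17.3 and 16.6, then 79.6 and 71.6, and Cxcl1 had 27.6 and 27.3, then 67.7 and 66.5. Nfkbie, an inhibitor of NF-kB and one of its targets, had 74.4 and 69.5, then 243 and 220. Cxcl12, a chemokine gene of progenitors, rose 3.12-fold, from 336 and 335 to 1029 and 1067. By the second day Ccl2 was at 20.5 and 14.7 and Cxcl1 at 4.43 and 4.28, at or below EpiSC, while Nfkbie stayed at 233 and 240. The subunit genes Rela and Nfkb1 were not called.

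Glucose uptake and hypoxia genes rose in 18 of 33 cases and fell in 5 (median 0.23), and Ldha, a bright glycolytic gene, was not called. Adm, which encodes the vasodilator adrenomedullin, had 124 and 136, then 1250 and 1346, and only 236 and 184 in NPC2. Slc2a1, the main glucose transporter gene, had 25226 and 25466, then 83169 and 83858, and kept that level after 2 days (82509 and 77213). Egln3, an oxygen-sensing hydroxylase gene, rose 2.63-fold, Eno2 2.46-fold and Bnip3, a mitophagy gene, 2.31-fold. Ldha had 207660 and 210510, then 212970 and 213750. Ndrg1 (-1.10), Car9 (-0.91) and Pdk1 (-0.62), also classical hypoxia genes, fell. Ldha, Ndrg1, Car9 and Pdk1 were chosen after their values were seen. Of 28 amino acid and unfolded protein stress genes 6 rose and 5 fell (median -0.02, or 0.10 in the value table), and 5 rose and 9 fell under median scaling. Ddit4, an inhibitor of mTORC1, rose from 33238 and 32654 to 79264 and 83878, and Cth, a cysteine synthesis gene, fell from 7234 and 7844 to 2819 and 2967.

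The oxidative phosphorylation, cholesterol and fatty acid, p53 and housekeeping lists held 0 called changes of 2-fold or more, and their calls followed the scaling. Of 31 oxidative phosphorylation genes 3 fell and 0 rose, whereas quantile normalization and the value table each gave 10 that rose and 1 that fell, and median scaling 10 that fell. Of 31 cholesterol and fatty acid genes 8 fell and 3 rose (median -0.10), or 5 and 7 in the value table (median 0.02), with 0 at least 2-fold apart. Among 22 p53 targets 6 rose and 5 fell and 0 were 2-fold apart (median -0.06, or 0.06 in the value table), and 4 rose and 8 fell under median scaling. Of 12 housekeeping genes 1 rose and 1 fell (median -0.07, or 0.05 in the value table), but 0 rose and 7 fell under median scaling. Gapdh had 267090 and 273350, then 275490 and 253500.

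Cell cycle genes were called lower in 11 of 31 cases and higher in 5 (median -0.10, or 0.02 in the value table), against 28.8% and 21.5% of all genes. The counts were 18 lower and 3 higher under median scaling and 7 and 7 in the value table. The inhibitor genes Cdkn2a and Cdkn2b, which share a locus, both fell. Cdkn2a had 670 and 700, then 151 and 124, and Cdkn2b had 301 and 316, then 140 and 118. Cdk6 fell 1.94-fold, and Ccna1, a cyclin gene of germ cells, rose 2.14-fold from 31.0 and 33.0 to 69.3 and 67.5.

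Of 39 chromatin genes 12 were higher and 15 lower (median -0.02), or 12 and 10 in the value table (median 0.10). Dnmt3l, a cofactor of de novo DNA methylation, fell from 183 and 178 to 60.7 and 56.4. The Polycomb gene Cbx8, not above background in EpiSC (2.50 and 2.66), had 14.8 and 15.9 in NPC1 and was at least 1.63-fold higher. Smarca2, the BRM subunit of BAF complexes, rose 2.27-fold and Tet2 1.97-fold. Of 28 imprinted genes 8 rose and 10 fell (median 0.10, or -0.01 under median scaling), against 11 and 5 in the value table. Igf2, the paternally expressed growth factor gene, rose from 21.7 and 27.4 to 77.4 and 71.7, and Meg3, a maternally expressed long RNA, from 20848 and 20300 to 41878 and 41608. Plagl1, a zinc finger gene, fell from 1539 and 1535 to 441 and 473, and its 4 probes ranged from -1.80 to 0.15.

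**Figure D3:**
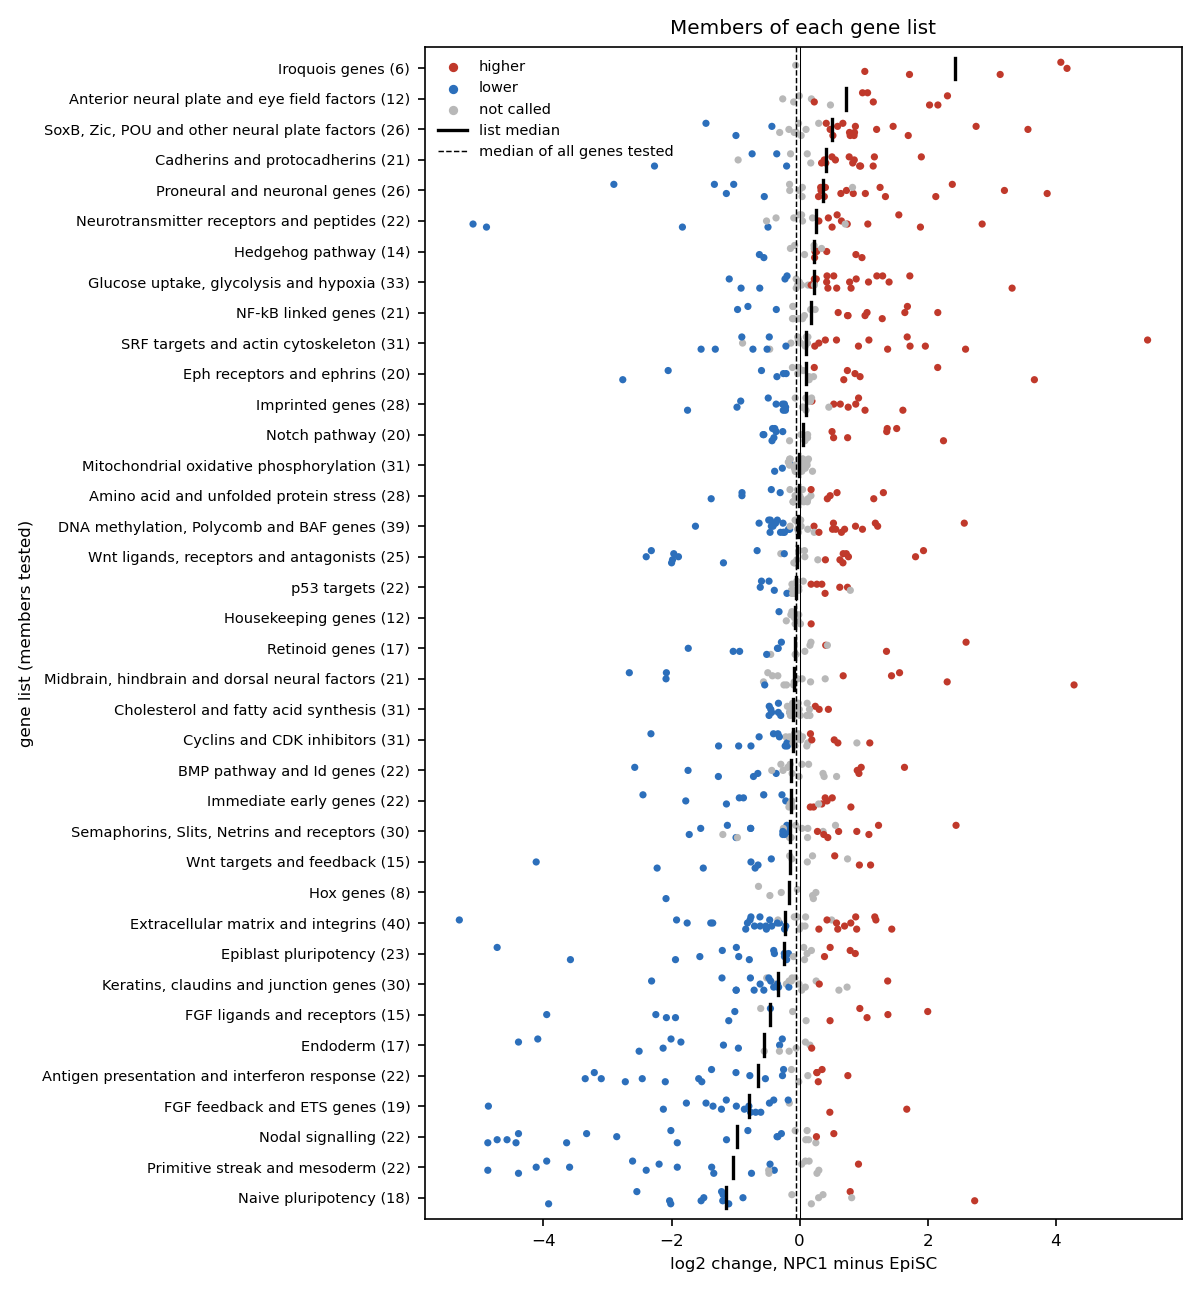
Log2 change (NPC1 minus EpiSC) of each tested member of the 38 gene lists, ordered by list median (black tick), with called genes in red (higher) or blue (lower) and the others in grey. Medians run from -1.15 (naive pluripotency) to 2.42 (Iroquois), and most lists hold members that moved in both directions.

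Some changed genes also lay beside each other in the genome. In the RefSeq gene order of 14657 tested genes, 16 runs of 3 or more adjacent tested genes were all at least 2-fold apart in 1 direction by their fitted changes, 10 lower and 6 higher, with 55 genes in all. Of the 14657 genes, 1229 were at least 2-fold apart, so most of these changed genes lay outside the runs. The runs were sought after the data were seen and have no test. Around the brachyury gene T, the genes Prr18 (-2.69), T2 (-1.21) and Pde10a (-1.75) fell. On the side of higher genes, the long RNA gene Crnde rose between Irx3 and Irx5, from 32.3 and 38.7 to 230 and 243. Its neighbour Irx6 closed the run, and the flanking genes Fto and Mmp2 changed by less than 2-fold. Dppa4 (-1.54) fell beside Dppa2 and Morc1, a germ cell gene, which were not above background in NPC1 and were at least 7.70-fold and at least 1.63-fold lower. The guanylate-binding genes Gbp3, Gbp2b and Gbp2 fell (-2.80, -2.40 and -2.61) with Gbp7, which was at least 6.21-fold lower, and 8 genes of the protocadherin beta cluster rose in 2 runs. Members of these last families are close copies, and signal shared between their probes was not tested.

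Beside these changes, marker lists of other cell types moved as follows, with counts to be read against 21.5% higher and 28.8% lower of all genes. A sum of intensities is carried by its brightest probes, so it can stay level while dim members fall. It is no measure of how many cells of a type were present. In the extraembryonic endoderm sum, for example, Afp (32.6 and 31.5 in EpiSC) and Gata6 (72.2 and 66.5) have almost no weight. The 13 tested fibroblast or feeder markers summed to 22111 and 22389 in EpiSC and to 17739 and 17672 in NPC1, with 2 higher (Thy1 and Fbln2) and 4 lower. The 8 tested trophoblast markers summed to 3714 and 3741, then 2531 and 2593, with 0 higher and 6 lower, and the 8 tested extraembryonic endoderm markers to 115619 and 122390, then 113499 and 112841, with 1 higher and 5 lower. Of the latter, Gata4, Sox7, Ttr and Apoa1 were not tested because they were not well above background in any group. The 9 neural crest markers summed to 1854 and 1912, then to 854 and 898, with 1 higher and 3 lower. In contrast the 10 neural plate markers summed to 6291 and 6107, then to 10252 and 10087, with 7 higher and 0 lower, and the 10 EpiSC markers to 206922 and 212502, then to 169422 and 169853, with 3 higher and 6 lower. Of 8 germ cell markers 3 were tested and summed to 448 and 493, then to 281 and 291, with 0 higher and 2 lower. Fewer cells of a type and less RNA per cell cannot be told apart in these bulk samples, and the part of other cell types in the gene changes was not tested.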

How the data were processed

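Total RNA of 6 EpiSC-derived cultures was hybridised to 1-colour Agilent arrays, 1 array per sample with no pooling. Intensities were extracted with Agilent Feature Extraction 10.10.1.1 per the file headers, and the processed intensity is background-subtracted and detrended within each array. The deposited value table holds the same intensity times 1 constant per array (2.10 to 2.41), and how the authors chose the constant is not stated in the labels or headers. Control spots and 35 probes flagged as outliers were left out. Values were scaled by the 75th percentile of each array, spots of a probe were averaged, and log2 values were computed from the deposited intensities. Probes were kept when 1 or more of the 3 groups had both arrays clearly above background (33532 of 55681). Probe accessions were named through RefSeq (GRCm38.p6): 26762 probes had 1 symbol and 28919 none, and a gene took its brightest probe over all 6 arrays. Probe intervals in the files are on mm9.

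All 6 arrays were fitted with limma 3.58.1 (R 4.3.3; 3 residual degrees of freedom, prior 1.88), two-sided, with Benjamini-Hochberg adjustment over 14772 genes, and the fit was tested on simulated data. A gene that both arrays of a group failed to detect above background has a lower bound in place of a fold: the bright group's mean against the higher of the dim value and the lowest signal well above background. Alternatives were normexp (offset 50), quantile normalization, median scaling, the deposited table, other filters, the mean over probes, a fit of 4 arrays, a replicate block and each array left out. Replicate letters did not pair the samples: A minus B differences correlated at 0.00799 between EpiSC and NPC1.

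Named genes are the 15 largest changes in each direction among called genes above background on all 4 arrays, the 6 largest bounds, the 5 largest called changes of each of 38 lists, and a set of standard markers. Members and lists were chosen with earlier results of these data known. A few genes among them are not reported here.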

Additional observations from a re-analysis of the deposited data

How the results depend on the processing

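The 7424 called genes became 4888 to 6374 when 1 array was left out, with 2318 to 2713 higher and 2553 to 3661 lower, and 6831 with a replicate block. The value table called 2708 lower against 4253 here. With normexp, 503 genes were at least 2-fold apart (216 higher and 287 lower) against 1232; that correction adds an offset to each signal. Of 211 named genes, 203 were called and 181 kept their call under every setting that tested them, the strictest filter testing fewer genes; 22 lost it under at least 1, among them Fgf17, Aldh1a3, Rax, Nkx6-2, Neurog3, Fat3, Slc7a11, Fasn, Gdf15, Cyc1, Atp5g1, Hprt and Pgk1. Genes that reversed were not called in the main setting: Irx4 became 0.0026 with normexp and 0.0592 in the value table (-0.2679 to 0.1443 with 1 array left out), Pax6 0.0196 and 0.1184 (-0.2002 to 0.1882), Gapdh 0.0885 in the value table and 0.0421 in the mean over probes (-0.0921 to 0.0280), Actb -0.0915 under median scaling (-0.0247 to 0.0505), and Six3 ranged from -0.0161 to 0.9778. The causes were not tested. Medians of 14 of 38 lists changed sign under a scaling. With 2 arrays per group, the number of arrays limits the precision, and 147 tested genes were above background in neither EpiSC nor NPC1.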

Other observations

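The array also carries 16194 probes that are named by a genomic interval and not by a transcript. Whether these intervals overlap or adjoin genes named above was not tested. Of these probes 7495 were tested, 22.6% called and 5.48% called and at least 2-fold apart (271 higher and 140 lower), against 40.6% and 7.78% of RefSeq mRNA probes. Several changed intervals hold many probes that moved 1 way. At chr3:93150607-93184368 (mm9) 16 of 18 tested probes were at least 2-fold apart; the 11 of these above background in both groups were all lower, with log2 changes from -3.64 to -1.55. The probe at their median had 336 and 296 in EpiSC, 35.7 and 27.5 in NPC1, and 6.20 and 8.50 in NPC2. At chr3:87757295-87774970, 8 of 10 tested probes were 2-fold apart and the 5 above background in both groups were higher. The probe at their median had 327 and 336 in EpiSC, 2036 and 2106 in NPC1, and 7634 and 7547 in NPC2. Probes of 1 interval share a possible transcript and are not independent, and these intervals were picked for their size of change.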
